A study of Mus musculus with 5 samples.

Results

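Neural progenitors and neurons build the BAF (SWI/SNF) chromatin remodelling complex from partly different subunits. The 10 genes described here encode paralogous subunits of it, and only some of these are exchanged when a progenitor becomes a neuron. The members were taken as every probe set of an Affymetrix array whose single gene symbol in the platform annotation was Smarca4, Smarca2, Smarcc1, Smarcc2, Smarcd1, Smarcd3, Actl6a, Actl6b, Dpf1 or Dpf3. That gave 20 probe sets for the 10 genes, out of 45101 probe sets and 18193 named genes in the table. Smarcc1 had 4 probe sets, Actl6a had 3, Smarca4, Smarca2, Smarcd1, Dpf1 and Dpf3 had 2 each, and Smarcc2, Smarcd3 and Actl6b had 1.

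RNA of 4 mouse medulloblastomas, a tumour of the cerebellum, was compared with RNA of 1 mouse cerebellum labelled P5, read as postnatal day 5. The series title concerns medulloblastomas of Cxcr6 mutant mice and a Smoothened inhibitor, but the labels of the single arrays give no genotype, strain, treatment or sex, and no age for the tumours. Tissue and age therefore cannot be told apart in any difference from the P5 cerebellum. Titles of medulloblastomas 1 and 2 begin with ken, and those of medulloblastomas 3 and 4 and of the cerebellum with hmk. All comparisons use this 1 normal array, without a replicate, and the number of arrays limits the precision.

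The BAF complex uses the energy of ATP to move nucleosomes. Its motor is Brg1 (Smarca4) or Brm (Smarca2), held on a scaffold of BAF155 (Smarcc1) and BAF170 (Smarcc2), with a BAF60 subunit (Smarcd1, Smarcd3) that contacts transcription factors. Dividing neural progenitors carry the actin-related protein BAF53a (Actl6a) and the zinc finger protein BAF45a (Phf10), and postmitotic neurons replace these by BAF53b (Actl6b) and by BAF45b or BAF45c (Dpf1, Dpf3). In the mouse this exchange is known to accompany exit from the cell cycle and to be needed for dendrite growth. Granule neuron precursors, the cells from which Hedgehog-driven medulloblastoma arises, still divide in the mouse cerebellum at P5 beside granule neurons that have already left the cycle.

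Smarcd3 and Actl6b, both on chromosome 5, had the largest differences from the cerebellum among the members. Neither difference passed an adjusted p under 0.05 (limma). The 250 bases before 1 RefSeq start of these 2 genes are shown beside those of the progenitor paralogues Smarcd1 and Actl6a. All are from GRCm38.p6: Smarcd3 at chr5:24602003-24602252 on the minus strand, Smarcd1 at chr15:99702037-99702286, Actl6b at chr5:137553296-137553545 and Actl6a at chr3:32708296-32708545, these 3 on the plus strand. Capitals mark CCAAT, the NF-Y box, and CAGCTG, an E-box of basic helix-loop-helix factors, on either strand (CCAAT on the other strand reads ATTGG, and CAGCTG reads the same on both).
Smarcd3: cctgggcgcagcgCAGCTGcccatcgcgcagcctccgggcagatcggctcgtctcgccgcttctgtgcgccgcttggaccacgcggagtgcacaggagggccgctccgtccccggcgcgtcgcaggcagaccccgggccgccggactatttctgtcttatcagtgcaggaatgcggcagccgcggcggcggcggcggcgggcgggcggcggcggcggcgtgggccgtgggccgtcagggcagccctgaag
Smarcd1: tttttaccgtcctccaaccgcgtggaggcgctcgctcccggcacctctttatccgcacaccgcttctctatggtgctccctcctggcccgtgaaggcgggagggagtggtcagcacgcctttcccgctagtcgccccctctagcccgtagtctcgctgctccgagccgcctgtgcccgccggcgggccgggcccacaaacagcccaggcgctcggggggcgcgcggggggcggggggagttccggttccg
Actl6b: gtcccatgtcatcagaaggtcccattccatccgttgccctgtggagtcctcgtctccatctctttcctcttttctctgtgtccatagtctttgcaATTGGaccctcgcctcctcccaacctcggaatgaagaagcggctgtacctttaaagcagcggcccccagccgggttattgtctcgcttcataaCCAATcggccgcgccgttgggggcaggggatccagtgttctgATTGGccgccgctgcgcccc
Actl6a: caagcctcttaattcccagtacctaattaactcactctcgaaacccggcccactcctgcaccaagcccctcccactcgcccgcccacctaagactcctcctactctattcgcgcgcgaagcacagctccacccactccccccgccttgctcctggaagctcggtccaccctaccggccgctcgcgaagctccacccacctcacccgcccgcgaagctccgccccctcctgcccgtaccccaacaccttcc
CCAAT was found 3 times before Actl6b and not before the other 3 genes, and CAGCTG once, before Smarcd3. Over all 10 member promoters CCAAT occurred in 3 (Actl6b, Dpf1 and Dpf3) and CAGCTG in 1, against 33.8% and 13.0% of all 32851 promoter windows of the same length. GGGCGG, the GC box of Sp factors, was present on either strand in 8 of 10 member promoters and in 32.7% of all windows, and GACCACCCA, a Gli binding sequence, in 0 of 10 and 0.225%. The members' windows were rich in CpG, with a median of 26.5 CpG and 69.6% G+C against 6 CpG and 52.4% over all windows. Those before Actl6b and Dpf3 held the fewest, 15 and 16. The table gives 1 start for each of these genes. For 6 of the 10 members (Smarcd3, Actl6b, Smarca4, Smarca2, Smarcc2 and Dpf1) it lies inside the outermost limits of the gene, so other starts are not covered. A match describes letters in a window and no binding.

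The members did not move together. At its brightest probe set, each of Smarcd3, Actl6b, Smarcc2 and Smarca2 read lower in all 4 tumours than in the cerebellum. These are taken here as neuronal paralogues. Their mean log2 differences ran from -2.19 to -0.41. Their counterparts Smarcd1, Actl6a, Smarcc1 and Smarca4 had mean differences between -0.24 and 0.14. Of these, Smarca4 also read lower in all 4 tumours, by -0.0018 to -0.20, and the others had tumours on both sides. The neuronal genes Dpf1 and Dpf3, at their brightest probe sets, lay above the cerebellum in every tumour instead, at low signals. At the dimmer probe sets of Smarca2, Dpf1 and Dpf3 tumours lay on both sides of the cerebellum. No member passed an adjusted p under 0.05 over all 14109 genes tested (limma with Benjamini-Hochberg adjustment), where 0.489% of genes did, and 2 of 10 had an unadjusted p under 0.05, both lower, against 7.44% of genes on the lower side. Every tumour lay below the cerebellum for 5 of the 10 genes and above it for 2, against 30.8% and 25.1% of all genes tested. Of the 18 tested probe sets of the members, 5 were below in every tumour and 3 above, against 28.4% and 25.4% of all probe sets tested. The members' median difference was -0.17 and that of all genes -0.07.

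**Figure D1:**
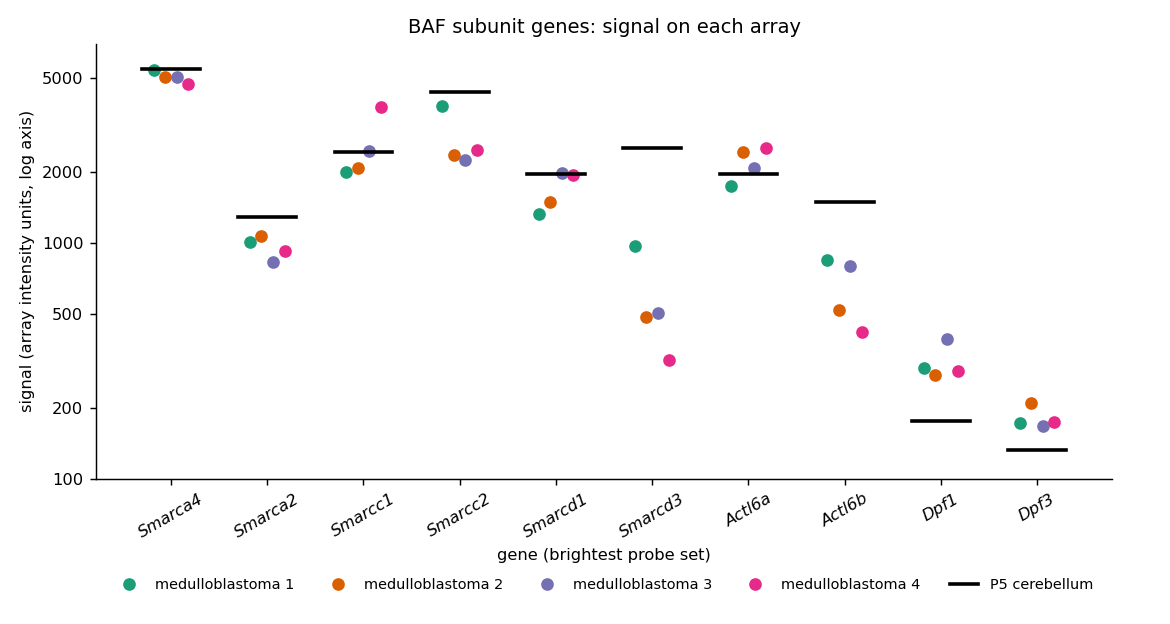
Signal of each subunit gene (x axis) on each array (y axis, array intensity on a log axis) at its brightest probe set, with 1 point per medulloblastoma and a bar for the P5 cerebellum. Points of Smarcd3 (320 to 972) and Actl6b (419 to 845) lie well under their bars at 2529 and 1501, whereas Smarca4 and Actl6a lie close to theirs. Heights of different genes are not comparable, because probe sets differ in brightness.

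Smarcd3 encodes BAF60c, a paralogue of BAF60a, and is only taken here as the neuronal side of that pair. Its signal was 972, 486, 504 and 320 in medulloblastomas 1 to 4 and 2529 in the cerebellum. All 4 tumours lay below the cerebellum, medulloblastoma 1 the least and medulloblastoma 4 the most, which put the cerebellum 2.60 to 7.91 times above a tumour. On the log2(signal + 32) scale used throughout, which understates changes of low signals, the mean difference was -2.19 ± 0.50 (SE of the limma fit, n = 4 and 1; adjusted p = 0.115). Of all genes tested, 0.822% had a lower value. Smarcd3 was also the only member at least 2-fold from the cerebellum in every tumour, on the lower side, as were 2.63% of genes.

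Smarcd1 encodes BAF60a and is taken here as the progenitor counterpart of Smarcd3. It read 1333, 1499, 1985 and 1946 against 1968, so medulloblastomas 3 and 4 were at about the cerebellum signal and 1 and 2 lay below it. The mean difference was -0.24 ± 0.29 (adjusted p = 0.721). A second Smarcd1 probe set read 21.1, 99.0, 77.5 and 144 against 50.8, under the mean signal of 100 needed for a test. The Smarcd3 difference minus the Smarcd1 difference was -0.80, -1.92, -2.27 and -2.85 in medulloblastomas 1 to 4 on the log2 scale, below 0 in each.

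Actl6b encodes BAF53b, which in the mouse brain is restricted to postmitotic neurons. Signals were 845, 521, 795 and 419 in medulloblastomas 1 to 4 and 1501 in the cerebellum. Every tumour was lower, with medulloblastomas 2 and 4 further down than 1 and 3, and the cerebellum 1.78 to 3.59 times higher. The mean difference was -1.23 ± 0.40 (adjusted p = 0.237 by limma), and 5.50% of genes had a lower value.

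Actl6a encodes the progenitor form BAF53a. The brightest read 1743, 2438, 2091 and 2522 against 1969, a difference of 0.14 ± 0.27 (adjusted p = 0.827). Because its name ends in x_at it may also bind related transcripts. The probe set next in brightness read 1298, 1771, 2256 and 1795 against 1333 (0.38 ± 0.32), and the dimmest 488, 476, 522 and 418 against 490 (-0.04 ± 0.31). Tumours lay on both sides of the cerebellum at all 3. Combined with the single Actl6b probe set, each of the 3 gave an Actl6b-minus-Actl6a contrast below 0 in all 4 tumours, with means between -1.62 and -1.19.

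Smarcc2, the BAF170 scaffold subunit whose amount relative to BAF155 changes as the cortex develops, read 3836, 2375, 2246 and 2480 against 4391. Medulloblastomas 2 to 4 were close to each other and 1.77 to 1.96 times below the cerebellum, and medulloblastoma 1 was nearer to it, at 1.14 times. The difference was -0.71 ± 0.31 (limma, adjusted p = 0.336).

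Smarcc1 encodes BAF155, the scaffold partner of BAF170. Its brightest probe set read 1993, 2085, 2453 and 3773 against 2435, with medulloblastoma 4 above and medulloblastomas 1 and 2 below the cerebellum (0.03 ± 0.35; adjusted p = 0.973). A nearly as bright probe set read 2064, 2110, 2410 and 2434 against 1773, above the cerebellum in all 4 tumours (0.34 ± 0.24). A dimmer one read 627, 810, 754 and 846 against 633 (0.24 ± 0.30). The last was under the signal needed for a test, at 43.3, 22.3, 15.9 and 173 against 55.7.

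The ATPase genes are the motors of the complex. Smarca4, which encodes Brg1, read 5454, 5084, 5048 and 4740 against 5461 at its brighter probe set, with medulloblastoma 1 practically at the cerebellum level (-0.10 ± 0.20; limma, unadjusted p = 0.613). At the dimmer one it read 2004, 1038, 1590 and 1117 against 1311, with 2 tumours on each side (0.08 ± 0.38). Smarca2 encodes Brm, which is more abundant in differentiated cells. It read 1015, 1075, 829 and 929 against 1286, below the cerebellum in all 4 tumours (-0.41 ± 0.26; adjusted p = 0.476). Its dimmer probe set read 726, 336, 258 and 226 against 540. There medulloblastoma 1 lay above the cerebellum and the other 3 below it (-0.59 ± 0.56).

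Dpf1 and Dpf3 encode BAF45b and BAF45c, double PHD finger proteins of neuronal BAF complexes. Dpf1 read 294, 274, 391 and 286 against 175, higher in every tumour (0.72 ± 0.37; adjusted p = 0.394), but 54.2, 190, 87.5 and 188 against 104 at its second probe set, where 2 tumours were above and 2 below (0.14 ± 0.71). Dpf3 read 173, 209, 167 and 174 against 132 (0.37 ± 0.45; adjusted p = 0.713). Its other probe set read 255, 49.5, 56.8 and 104 against 136, with only medulloblastoma 1 above the cerebellum (-0.37 ± 0.80). Neither gene thus had a direction shared by its probe sets in every tumour.

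**Figure D2:**
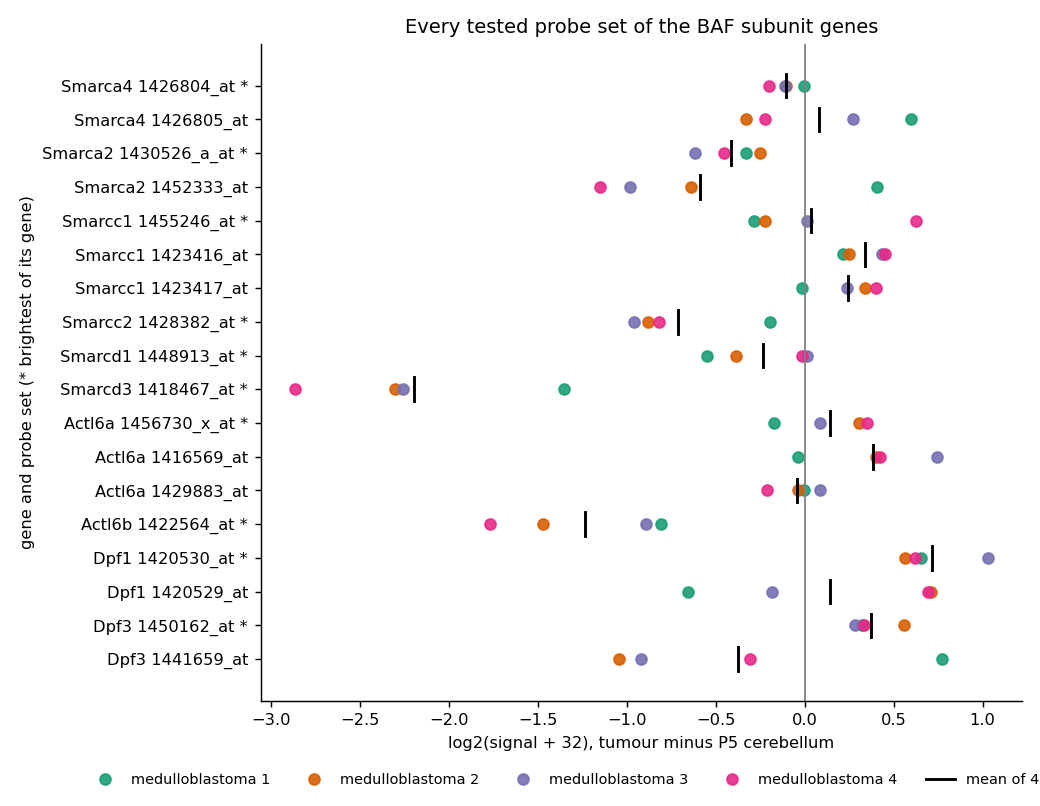
Difference of each tumour from the P5 cerebellum (x axis, log2(signal + 32)) at each of the 18 tested probe sets of the 10 genes (y axis), with 1 point per medulloblastoma and a vertical bar at their mean. The 5 probe sets with all points left of 0 are 1 each of Smarca4, Smarca2, Smarcc2, Smarcd3 and Actl6b, and the 3 with all points right of 0 belong to Smarcc1, Dpf1 and Dpf3.

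Comparing paralogues within each array shows whether the 2 genes changed unequally. The scale of the array and the brightness of the probes cancel only in part, because of the constant added before the log, which bears most on the dim probe sets of Dpf1 and Dpf3. For 7 pairs, the change of the neuronal gene minus that of the progenitor gene was taken in each tumour. These names mark the side given to a gene in its pair, not that it is confined to those cells. The mean was -1.96 ± 0.86 (SD, n = 4) for Smarcd3 and Smarcd1, -1.37 ± 0.69 for Actl6b and Actl6a, -0.96 ± 0.16 for Ss18l1 and Ss18, and -0.31 ± 0.15 for Smarca2 and Smarca4. In these 4 pairs and in Dpf3 and Phf10 (-0.37 ± 0.33) all 4 tumours were below 0. For Smarcc2 and Smarcc1 the values were 0.09, -0.66, -0.97 and -1.44, so medulloblastoma 1 stood on the other side, although with each of the 2 other tested Smarcc1 probe sets all 4 tumours were below 0. Dpf1 and Phf10 gave -0.02 ± 0.25, with tumours on both sides of 0. Over all combinations of tested probe sets, the brightest pair included, every tumour was below 0 in 2 of 4 for Smarca2 and Smarca4 and in 2 of 3 for Ss18l1 and Ss18. For Dpf3 and Phf10 this was so in 1 of 4, the brightest pair alone. With the dimmer Phf10 probe set, every tumour was above 0 for the brighter probe sets of Dpf3 (mean 0.56) and Dpf1 (mean 0.90). With 4 arrays against 1 an exact two-sided permutation test over arrays cannot give a p under 0.2. It gave 0.2 for Smarcd3 and Smarcd1, Actl6b and Actl6a, and Ss18l1 and Ss18 (0.467 adjusted over the 7 pairs), and between 0.4 and 1 for the other 4.

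**Figure D3:**
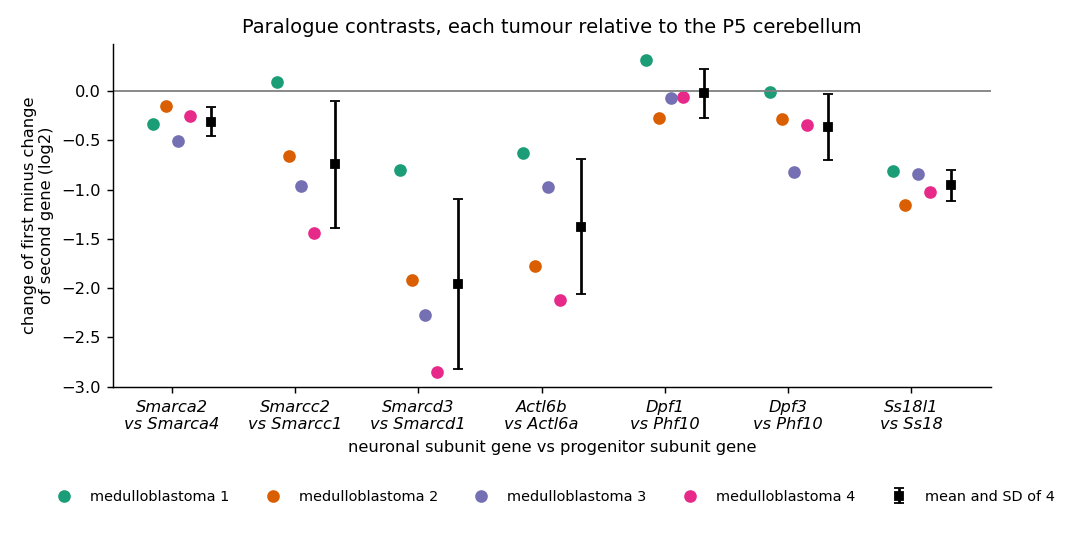
Change of the neuronal gene minus change of the progenitor gene (y axis, log2 units relative to the P5 cerebellum) for 7 pairs (x axis), with 1 point per medulloblastoma and the mean with its SD beside them. Values reach -2.85 for Smarcd3 against Smarcd1 and -2.12 for Actl6b against Actl6a, both in medulloblastoma 4, while Dpf1 against Phf10 scatters around 0.

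The tumours were not alike in these genes. Medulloblastoma 1 had the highest signal of the 4 tumours for Smarcd3, Actl6b, Smarcc2 and Ss18l1 and at 1 of 2 probe sets of Smarca2. It had the lowest for Smarcd1, at all 3 tested probe sets of Smarcc1, at 2 of 3 of Actl6a and at 1 of 2 of Phf10. Other probe sets went against this order. Medulloblastoma 1 was highest at both of Smarca4, at the other of Phf10 and at 1 of 3 of Ss18, all taken as progenitor genes. It was lowest at 1 of 2 of the neuronal gene Dpf1. The same array had the largest summed signal of 8 postmitotic neuron markers (58505, against 30976 to 40857 in the other tumours and 49112 in the cerebellum). Among the tumours Rbfox3, Snap25, Syt1, Stmn2 and Gabra6 were highest there, Tubb3 (2909) and Dcx (3070) lowest, and Map2 in between. Medulloblastoma 1 also had the smallest sum of 7 dividing cell markers among the tumours (36313, against 44387 to 49198, and 25068 in the cerebellum). Among the tumours it also had the largest sums of Purkinje cell markers (25554, against 5209 to 14107), interneuron markers (3865, against 1174 to 2222) and oligodendrocyte lineage markers (33472, against 16455 to 20255). The last sum was mostly Mbp, at 28288 in medulloblastoma 1. Olig1 (1907), Pdgfra (2357) and Sox10 (711) were lowest there among the tumours, and Mog lay in between. Of the interneuron markers, Ptf1a was highest in medulloblastoma 4. Medulloblastoma 1 had the highest 3'/5' signal ratios of the 5 arrays, which rise as RNA degrades, at 1.45 for actin and 0.946 for Gapdh. The part of marker content or RNA integrity in the members' differences was not tested.

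Without medulloblastoma 1, Smarcd3 was called lower at -2.47 (limma, adjusted p = 0.00572) and Smarcc2 at -0.88 (adjusted p = 0.0341), and Actl6b, at -1.38, missed the threshold with an adjusted p of 0.0584. In that fit 448 genes were called higher and 383 lower, the latter 2.71% of all genes. Leaving out medulloblastoma 2, 3 or 4 called only 2, 10 and 0 genes higher and 0, 6 and 0 lower over all genes. Smarcd3, Smarcc2 and Actl6b were not among them, with differences of -1.97 to -2.17 for Smarcd3. Within the hmk arrays all 3 were called lower, at -2.56 for Smarcd3 (adjusted p = 0.000759), -1.33 for Actl6b (0.0362) and -0.89 for Smarcc2 (0.0145). The spread then comes from 2 tumours only, and 837 genes were called higher and 841 lower, 5.93% and 5.96% of all genes. The ken arrays include no cerebellum. With the cerebellum of the other prefix as reference, they gave -1.83 for Smarcd3 (adjusted p = 0.199), -1.14 for Actl6b (0.350) and -0.54 for Smarcc2 (0.610).

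Neuronal genes other than the members did not move as 1 group. Of 8 postmitotic neuron markers, 4 lay below the cerebellum in every tumour and 3 above, with a median difference of -0.56. Stmn2, which regulates microtubules in growing axons, differed by -1.34 and Syt1, a synaptic vesicle calcium sensor, by -1.34, whereas the vesicle fusion gene Snap25 differed by 1.20 and the granule neuron receptor gene Gabra6 by 3.99. All 7 measured dividing cell markers were above the cerebellum in every tumour (median 0.72). All 4 measured Purkinje cell markers were below it, with sums of 5209 to 25554 against 36382. Of 4 interneuron markers 3 were below in every tumour, with sums of 1174 to 3865 against 5784, and of 6 astrocyte markers 5, with sums of 13485 to 19058 against 61843. All 6 microglia markers were above, with sums of 10983 to 13357 against 4629. The 4 endothelial markers were below (sums of 1500 to 1965 against 4607), as were 2 of 4 fibroblast and meningeal ones (1900 to 3409 against 7419). Of 5 oligodendrocyte lineage markers 2 were above and 1 below, with sums of 16455 to 33472 against 15959. Of 6 granule lineage markers 2 were above and 3 below, with sums of 39124 to 42361 against 44336. Of these, Atoh1 (2.81) and Barhl1 (0.97) were above in every tumour, Zic1 (-0.40), Pax6 (-1.02) and Neurod1 (-0.81) below, and Zic2 (-0.24) on both sides. No marker was listed at 0. In bulk tissue, fewer cells of a type and less RNA per cell cannot be told apart, and the part of these cell types in the members' differences was not tested.

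The companion list held 20 further subunit genes and Rest, all measured and tested, and none passed the threshold over all genes, while 4 had an unadjusted p under 0.05 on the higher side and 1 on the lower (limma; 7.72% and 7.44% of all genes). Their median difference was 0.26, against -0.07 for all genes. For 8 of the 21 all tumours were above the cerebellum, and for 4 all were below, against 25.1% and 30.8% of all genes. Within the hmk arrays 5 of the 21 were called: Phf10 (0.89, limma adjusted p = 0.0444), Smarce1 (0.82, 0.0255), Brd7 (1.09, 0.0157) and the PBAF gene Pbrm1 (0.80, 0.0147) higher, and Rest (-1.53, 0.0345) lower. Of all genes, 5.93% were called higher and 5.96% lower within the hmk arrays. In the ken tumours Phf10, Smarce1, Brd7, Pbrm1 and Rest differed by 0.59, 0.51, 0.56, 0.086 and -2.38, none called.

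Among the partners of the switch, Phf10, the progenitor subunit BAF45a, read 1198, 1714, 2060 and 1528 against 943, above the cerebellum in every tumour (0.74 ± 0.31; adjusted p = 0.321). Its second probe set read 434, 384, 365 and 264 against 410 and did not show this (-0.19). Ss18, which encodes the progenitor subunit SS18, read 3637, 4101, 3204 and 3489 against 2686 (0.42 ± 0.22; adjusted p = 0.409). Its other probe sets differed by 0.31 and -0.45. Ss18l1, which encodes CREST, the calcium-responsive subunit that replaces SS18 in neurons, read 796, 705, 686 and 657 against 1046, below the cerebellum in every tumour (-0.54 ± 0.26; adjusted p = 0.370). Dpf2, the widely expressed BAF45d, read 2552, 3206, 2318 and 2370 against 2954 (-0.19 ± 0.25; adjusted p = 0.745), with 0.12 at its dimmer probe set.

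Rest, the repressor that keeps neuronal genes silent in other cells, read 120, 86.0, 222 and 198 against 665. All 4 tumours were far below the cerebellum, 1 and 2 the furthest, with a difference of -1.95 ± 0.53 (adjusted p = 0.163). Its next probe set differed by -0.84 and the other 2 were very dim, with at most 38.0 on any array. Bcl7b, an accessory subunit, read 551, 559, 613 and 678 against 321 (0.84 ± 0.29; adjusted p = 0.252). Brd7, a bromodomain subunit of the PBAF form of the complex, read 1097, 1073, 1656 and 1514 against 726 (0.83 ± 0.31; adjusted p = 0.284), with -0.16 at its dim second probe set. The core subunit gene Smarce1 read 2030, 2811, 2791 and 3163 against 1665 (0.67 ± 0.28; adjusted p = 0.314). Its next probe set read 1182, 1930, 1816 and 2155 against 1407 (0.29), with medulloblastoma 1 below the cerebellum. The last was very dim, with at most 32.7 on any array.

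**Figure D4:**
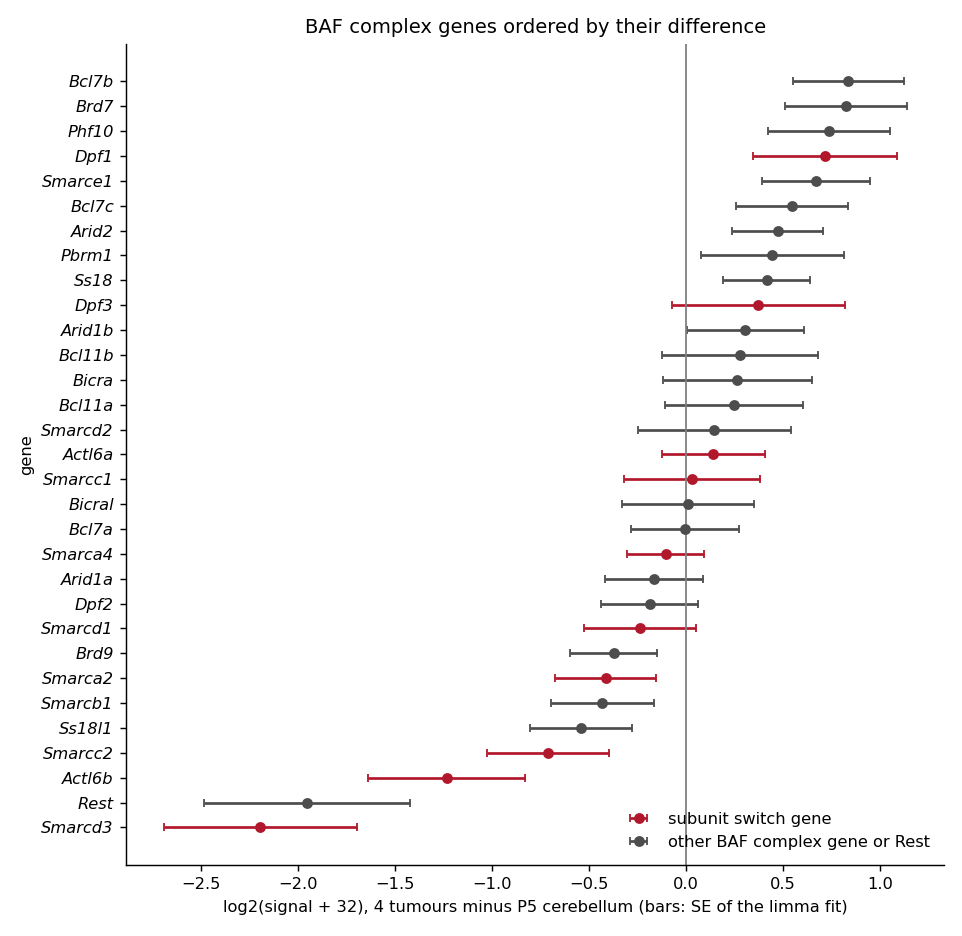
Difference of the 4 medulloblastomas from the P5 cerebellum (x axis, log2(signal + 32), bars are the SE of the limma fit) for the 10 subunit switch genes in red and 21 further genes in grey, ordered by value (y axis). Smarcd3 (-2.19), Rest (-1.95), Actl6b (-1.23) and Smarcc2 (-0.71) form the low end, and Bcl7b (0.84) and Brd7 (0.83) the high end.

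The genes whose profile over the 5 arrays was nearest that of Smarcd3, the member with the largest difference, were Bmp4, Gnal and Tdrd7. The root mean square distances of their log2 profiles, centred on the cerebellum, were 0.0772, 0.170 and 0.199. Bmp4, a ligand of BMP signalling, read 121, 45.7, 43.4 and 20.8 against 367. Gnal, a G protein alpha subunit, read 409, 282, 229 and 163 against 1232. Tdrd7, a Tudor domain protein of RNA granules, read 265, 102, 92.8 and 43.4 against 669. Like Smarcd3, each was highest among the tumours in medulloblastoma 1 and lowest in medulloblastoma 4. That likeness follows from choosing them by nearness to its profile and is no separate result.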

How the data were processed

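Total RNA of 4 medulloblastomas and 1 P5 cerebellum was measured on Affymetrix arrays. The authors deposited linear intensities of every probe set. The submitters' processing notes name MAS5 for 4 arrays and no tool for medulloblastoma 3. Each array had a mean of 500.002 after trimming 2% at each end. Nothing in the labels says whether tumours came from separate mice, so p-values reflect only the spread between these tumour samples, and none between normal cerebella.

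Probe sets were named from the platform annotation, updated by Entrez gene ID. The brightest probe set by mean signal stood for each gene, genes with a mean of at least 100 were kept (14109; all 10 members, and 18 of their 20 probe sets), and log2(signal + 32) was fitted with limma 3.58.1 in R 4.3.3 (eBayes with a variance trend; two-sided, Benjamini-Hochberg over all genes). Residual spread comes from the tumours, with 3 degrees of freedom, and the single cerebellum is assumed to vary like them. SE values of a gene's further probe sets come from the same fit over 25843 probe sets, where 0.248% were called and no member probe set was (lowest adjusted p 0.131). The procedure was tested on simulated data with planted changes larger than any member difference. The simulated cerebellum was drawn with the spread of the tumours. That test therefore covers neither changes of the members' size nor the spread between normal cerebella. Sequences are RefSeq's for GRCm38.p6, which held all 10 members.

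All members, the 4 switch partners, any called companion gene, the 4 other companions furthest from 0 and the 3 nearest profiles to the leading member were named; Pbrm1 was named after its values were seen. Members, lists, including 10 lists of cell markers, and motifs were chosen with earlier results of these data known. Alternatives were other scalings, constants, filters, probe set choices and variance models, arrays of 1 title prefix, and each tumour left out in turn.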

Additional observations from a re-analysis of the deposited data

How the results depend on the processing

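Smarcd3, Actl6b, Smarcc2 and Smarca2 were lower, and Actl6a and Dpf1 higher, than the cerebellum under all 18 alternatives run, with ranges of -2.56 to -1.83, -1.38 to -1.04, -0.89 to -0.52, -0.54 to -0.22, 0.065 to 0.38 and 0.43 to 0.88. Smarcd3 and Smarcc2 passed the threshold in 2 of 18 and Actl6b in 1. The contrasts of Smarcd3, Actl6b, Smarcc2, Smarca2, Dpf3 and Ss18l1 with their partners kept their sign in all 14 alternatives. These did not include other single probe sets, and with the dimmer Phf10 probe set the mean Dpf3 contrast was 0.56. Signs turned for main differences between -0.24 and 0.15, and also for Smarcb1 (-0.43) and Dpf3 (0.37) with all probe sets averaged. With quantile normalization Smarcc1 was -0.058 and the contrast of Dpf1 and Phf10 0.14. With equal medians, which move the median of all genes from -0.07 to 0.12, Smarca4 was 0.090, Dpf2 0.0060, Arid1a 0.029 and Bcl7a 0.19. That contrast was also 0.034 with a constant of 8 and 0.057 with a floor of 50. With all probe sets averaged Smarcd1 was 0.072, Dpf3 -0.00060, Smarcb1 0.066, Bcl7a 0.14 and the contrast 0.15. In the hmk arrays Smarcd2 was -0.20, Bicral -0.24 and Bcl7a 0.21, and in the ken tumours Smarcc1 was -0.25, Arid1a 0.013 and the contrast 0.021. The cause of these turns was not tested.

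With 1 tumour left out, the value ranged from -0.16 to 0.14 for Smarcc1, from -0.066 to 0.29 for Smarcd2, from -0.14 to 0.099 for Bicral, from -0.12 to 0.077 for Bcl7a and from -0.14 to 0.062 for the contrast of Dpf1 and Phf10. The lowest came without medulloblastoma 4 for Smarcc1 and Bcl7a and without medulloblastoma 1 for the other 3.

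Over all genes, 44 were called higher and 25 lower. The calls were 78 higher with equal medians, 45 lower with the larger added constant, 14 and 12 with no filter, 11 and 5 with probe sets averaged, 0 and 0 without a variance trend, 837 and 841 in the hmk arrays and 21 and 16 in the ken tumours with the cerebellum. With 1 tumour left out they ranged from 0 to 448 higher and from 0 to 383 lower, most without medulloblastoma 1 and none without medulloblastoma 4. Smarcd3 was the only member at least 2-fold lower in every tumour, and none was 2-fold higher, in each of the 16 alternatives that give this count. No paired analysis was possible because the labels give no replicate numbers and there is 1 cerebellum.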
